A study of Mus musculus with 282 samples.

Results

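Livers of male C57BL/6J mice lacking the clock gene Bmal1 in the whole body (BMKO) were compared after injection of rapamycin or of its vehicle. The members were all 36 libraries that the sample labels place in these arms, 18 with rapamycin and 18 with vehicle, out of 282 libraries in the series. Both arms carried the same whole-body Bmal1 deletion, were fed only at night under 12 h of light and 12 h of dark, and were sampled at zeitgeber time (ZT, hours after lights on) 2, 6, 10, 14, 18 and 22, with 3 biological replicates at each time. The arms therefore differed in the injected agent alone, as far as the labels say, and neither the dose nor the time from injection to tissue collection is given in the sources used here. RNA came from the lateral lobe of whole liver, so hepatocytes and all other liver cells were measured together, and fewer cells of a type cannot be told apart from less RNA per cell.

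The series as a whole asks how much mTOR signalling contributes to daily gene expression in liver, with WT, liver knockout, feeding and other drug arms. For comparison, 36 libraries of night-fed WT mice given the same injections were used, and 36 libraries of uninjected night-fed mice, of which 18 lacked Raptor in the liver and 18 carried Albumin Cre alone. Libraries were made with a kit that reads only the 3' ends of polyadenylated RNA, so a gene's value does not grow with its length, and expression is given as RPM, reads per 1000000 reads of the library after rescaling.

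Rapamycin binds the immunophilin FKBP12, and the pair inhibits mTORC1, the kinase complex that joins signals from amino acids, insulin and energy state to protein synthesis, nucleotide and lipid synthesis and the restraint of autophagy. In liver, mTORC1 is active after feeding and falls with fasting. Bmal1 (gene symbol Arntl) and CLOCK form the activator of the molecular clock and bind E-box elements, and mice without Bmal1 have no working clock, although rhythms that follow the feeding schedule can remain in their livers.

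The depth was 5.66 to 12.7 M reads (M for 1000000) per library over the 36 libraries. Arntl transcript, measured on the scale of the 4 injected arms, had 7.72 to 20 RPM (median 15.6) in BMKO vehicle liver and 4.49 to 27.3 RPM (median 11.5) in BMKO rapamycin liver. It had 0 to 22.9 RPM (median 6.68) in WT vehicle liver. The 3' tag may lie outside the deleted part of the gene, so its level checks nothing about the deletion. Of the clock genes Nr1d1, Bhlhe41 and Ciart, none reached a mean of 1 RPM in the BMKO libraries. The 12 hepatocyte marker genes checked were all detected, and together had 39370 to 84010 RPM with vehicle and 36610 to 67330 RPM with rapamycin. Among the WT libraries used for comparison, 1 with rapamycin at ZT 22, of replicate 1, had 0.706 M reads and 11634 genes with a read. It stood apart from the rest and is called the shallow WT library below. The other WT rapamycin libraries of replicate 1 were also low, at 4.31 to 5.37 M reads and 14540 to 15089 genes. So was WT rapamycin replicate 2 at ZT 2, with 5.02 M reads and 14798 genes. WT vehicle libraries had 7.67 to 14.3 M reads and 15331 to 15728 genes.

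The libraries with replicate number 1 stood apart from the others. After removal of the mean of each arm and time, the first principal component held 44.5% of the remaining variance, and replicate number accounted for 79.9% of that component. All 6 vehicle libraries of replicate 1 had 15046 to 15267 genes with a read, against 15505 to 15740 in the other vehicle libraries. In the rapamycin arm replicate 1 had 15161 to 15651 such genes, and the other libraries had 15510 to 15774. Results are therefore given over all 36 libraries and again without replicate 1, which leaves 24 libraries. A gene is said to pass in both fits where it was called in each with the same sign.

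**Figure D1:**
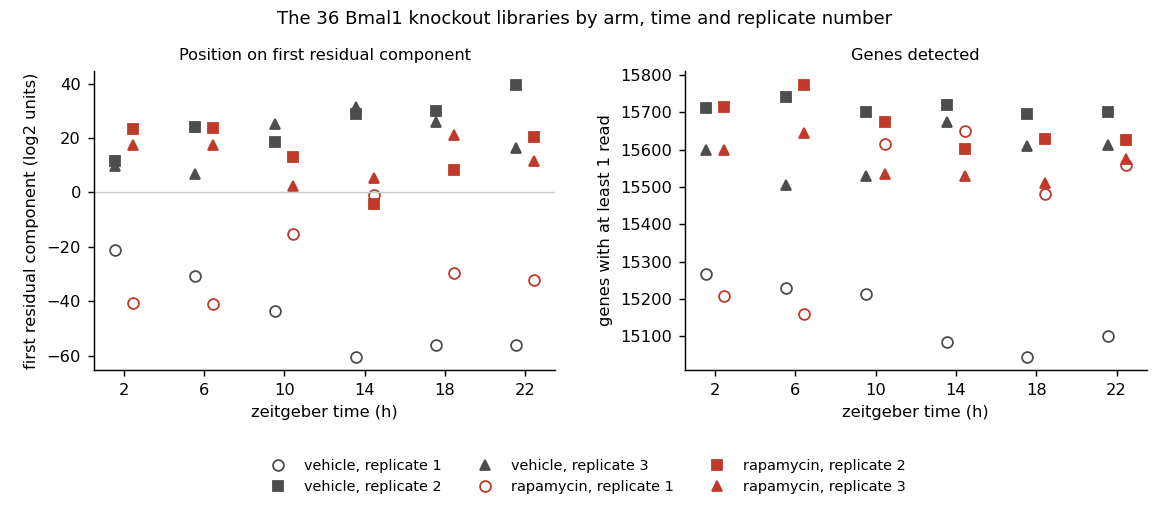
The 36 BMKO libraries by zeitgeber time (x axis, h), with the position on the first residual component (left, log2 units) and the number of genes with at least 1 read (right); grey is vehicle, red is rapamycin, and marker shape is replicate number. The 6 vehicle libraries of replicate 1 (open circles) lie below all other vehicle libraries in both panels, at 15046 to 15267 genes against 15505 to 15740.

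The daily mean difference between the arms asks which transcripts rapamycin raised or lowered in a liver without a clock, whatever the time of day. Among the genes called, those listed for drug metabolism and for DNA replication were all lower with rapamycin, 9 of 23 tested in each list, and those of lysosome and amino acid breakdown were mostly lower, 10 against 3 higher in each. Called genes of glycolysis and fructose use, of insulin signalling and gluconeogenesis, and of secreted regulators were mostly higher, 7, 6 and 5 genes, and hepcidin was among the rises. Of 12610 genes tested, 753 were higher (5.97%) and 724 lower (5.74%) with rapamycin, with 3467 genes at an unadjusted p under 0.05. Passing in both fits were 314 higher genes (2.5%) and 407 lower genes (3.24%) of 12548 tested in each. The list counts below are to be read beside these shares of all genes.

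The changes were mostly modest. The median size among the 1477 called genes was 0.43 on the log2 scale, and 173 higher and 217 lower genes differed by more than 1.5-fold. The sign was the same at all 6 times for 1047 of them. Of the 1470 called genes that were also tested without replicate 1, 1469 kept their sign there, but 721 kept their call. The count of calls was 1106 without replicate 1, 544 without replicate 2 and 313 without replicate 3.

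The calls on single genes therefore differ in how far they rest on 1 set of libraries. Most called genes given with a value below are among those that passed in both fits. Their number called without replicate 1 is therefore not a measure of stability, and of all 1477 called genes 48.8% kept the call there. Of 80 genes called and given with a value below, 79 were called without replicate 1, 55 without replicate 2, 38 without replicate 3 and 35 in each of these fits. The 35 are Cyp2b10, Cyp2b9, Cyp2c55, Cyp4a12a, Cyp4a12b, Mcm2, Mcm5, Mcm6, Cdt1, Gins2, Otc, Gls2, Oat, Gnmt, Cth, Agxt, Hexa, Ppat, Vldlr, Lpl, Ftl1, Sdf2l1 and Hamp2, which fell, and Slc17a8, Pklr, Slc2a2, Inhba, Hamp, Smad7, Cp, Cdkn1a, Slco1a1, Nolc1, Nop56 and Npm1, which rose. The other 45 lost the call in at least 1 of these fits, among them Csad without replicate 2 (limma adjusted p = 0.0778), Cyp2e1 without replicate 3 (0.0502) and the mTORC1 pathway genes Fnip1, Flcn and Tsc1 without replicate 2 or 3.

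Cytochrome P450 genes led the falls. Cyp2b10 (chromosome 7, 25897620 to 25926624, coordinates here and below on GRCm38), the classic target of the drug-sensing receptor CAR, had 22.3 to 133 RPM (median 50.3) over the 18 vehicle libraries and 2.34 to 23.3 RPM (median 9.07) over the 18 rapamycin libraries. All 18 rapamycin libraries lay under the vehicle median and 16 lay under the lowest vehicle library. The log2 difference was -2.50 ± 0.22 (SE; limma adjusted p = 3.71e-08), a 5.65-fold fall, and -2.32 without replicate 1 (limma adjusted p = 6.34e-06).

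Cyp2c55 (chromosome 19, 39007019 to 39042693), another CAR-responsive P450, had 15.1 to 108 RPM (median 50.1) with vehicle and 5.02 to 22.8 RPM (median 13) with rapamycin. Its log2 difference was -1.80 ± 0.20 (limma adjusted p = 7.93e-07; without replicate 1 -1.83). Cyp2b9, a P450 that is higher in female liver, had 2.53 to 71.8 RPM (median 28.4) with vehicle and 0.32 to 17.3 RPM (median 4.17) with rapamycin, a log2 difference of -2.50 ± 0.35. Both genes were lower with rapamycin at all 6 times. Cyp4a12a and Cyp4a12b, male-biased P450 genes, had log2 differences of -2.07 ± 0.23 and -1.99 ± 0.24, with the caution that they are close copies whose reads may be shared.

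Of the 23 drug metabolism genes tested, 9 fell and none rose, with 7 of the falls passing in both fits and a median log2 difference of -0.35 (-0.19 without replicate 1, -0.0045 over all genes). Cyp2e1, which oxidises ethanol and acetaminophen, had 1528 to 3318 RPM (median 2575) with vehicle and 504 to 2764 RPM (median 1598) with rapamycin, a log2 difference of -0.80 ± 0.16 (limma adjusted p = 0.00128). Cyp1a2, the caffeine-oxidising P450, fell by 1.4-fold, and Cyp2c29 by 1.38-fold. Cyp2a5 also fell, but reads of its near-identical copies may be shared and its value is uncertain. The receptor genes of this list did not pass over all libraries, and the pregnane X receptor Nr1i2 had a log2 difference of 0.29 ± 0.13 (limma adjusted p = 0.144; without replicate 1, 0.31 with 0.0268).

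DNA replication genes moved in 1 direction where they passed. Of 23 proliferation and replication genes tested, 9 fell, none rose, and all 9 falls passed in both fits, with a median log2 difference of -0.37 (-0.38 without replicate 1). Mcm6 (chromosome 1, 128331590 to 128359664), a subunit of the MCM helicase that opens DNA at replication origins, had 2.89 to 37.9 RPM (median 9.17) with vehicle and 1.56 to 8.15 RPM (median 2.61) with rapamycin. Its log2 difference was -1.63 ± 0.17 (limma adjusted p = 2.91e-07), a 3.1-fold fall. The helicase subunits Mcm2, Mcm3 and Mcm5 fell by 1.85-fold, 1.6-fold and 1.92-fold. The loading factor Cdt1 fell by 1.68-fold and the GINS subunit Gins2, at a median of 1.29 RPM with vehicle, by 2.15-fold. These are low transcripts, and 7 other listed genes, among them the mitotic cyclins Ccna2 and Ccnb1, were not tested.

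Many replication genes have CCAAT boxes in their promoters, and 12 of the 18 listed genes with a RefSeq promoter (66.7%) held CCAAT or its reverse complement ATTGG in the 250 bases before the start, against 40.65% of 9067 tested genes with a promoter in the table. Both strands were searched for the letters CCAAT. Promoter windows of the 3 MCM genes that fell and held 2 or more matches, Mcm3, Mcm5 and Mcm6, are printed here 5′ to 3′ in the direction of transcription, from RefSeq on GRCm38.p6, with the matches in capitals, so that the spacing of the boxes can be read. Of other genes of the list that fell, Mcm2 held 1 match and Cdt1 and Lig1 held 0. The windows are chr1:20820313-20820432, minus strand for Mcm3, chr8:75109389-75109508, plus strand for Mcm5 and chr1:128359706-128359825, minus strand for Mcm6. A match describes these letters and does not show that a factor binds.
Mcm3: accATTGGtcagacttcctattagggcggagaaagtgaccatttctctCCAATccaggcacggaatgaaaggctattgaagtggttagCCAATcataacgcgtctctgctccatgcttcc
Mcm5: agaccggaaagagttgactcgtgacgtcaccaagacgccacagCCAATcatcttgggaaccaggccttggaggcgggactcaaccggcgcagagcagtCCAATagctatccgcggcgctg
Mcm6: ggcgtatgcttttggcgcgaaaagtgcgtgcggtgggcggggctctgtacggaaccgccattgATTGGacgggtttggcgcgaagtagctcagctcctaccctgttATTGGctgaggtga

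Amino acid breakdown and nitrogen disposal were lower at several steps. Of 34 urea cycle and amino acid catabolism genes, 10 fell and 3 rose, of which 7 falls and 1 rise passed in both fits, and the median log2 difference was -0.23 (-0.19 without replicate 1). Otc (chromosome X, 10252305 to 10321024), which makes citrulline in the urea cycle, had 273 to 401 RPM (median 332) with vehicle and 132 to 298 RPM (median 216) with rapamycin. Its log2 difference was -0.66 ± 0.08 (limma adjusted p = 4.40e-06). Gls2 (chromosome 10, 128194457 to 128210004), the liver glutaminase that releases ammonia from glutamine, had 313 to 556 RPM (median 426) with vehicle and 137 to 473 RPM (median 213) with rapamycin, a log2 difference of -0.93 ± 0.12. Oat (chromosome 7, 132557478 to 132576398), which converts ornithine, had 634 to 1266 RPM (median 923) with vehicle and 338 to 792 RPM (median 460.4) with rapamycin, a log2 difference of -0.87 ± 0.11.

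The range of libraries overlapped between arms for these 3 genes, and each fell with all libraries and without replicate 1. Gnmt, which methylates glycine and disposes of S-adenosylmethionine, fell by 1.55-fold and Hpd, of tyrosine breakdown, by 1.4-fold. Cth (chromosome 3, 157894248 to 157925077), which makes cysteine from cystathionine, had 157 to 525 RPM (median 220.3) with vehicle and 25 to 238 RPM (median 121) with rapamycin, a log2 difference of -1.21 ± 0.20 (limma adjusted p = 1.82e-04). Agxt, which detoxifies glyoxylate, fell by 2.21-fold.

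The taurine enzyme moved the other way. Csad (chromosome 15, 102176999 to 102204724), which decarboxylates cysteine sulfinate on the way to taurine, had 46.4 to 660.0 RPM (median 131) with vehicle and 201 to 1679 RPM (median 438) with rapamycin. All 18 rapamycin libraries lay above the vehicle median, and 4 lay above the highest vehicle library. The log2 difference was 1.79 ± 0.33 (limma adjusted p = 6.58e-04), a 3.45-fold rise, and 1.95 without replicate 1. Slc17a8 (chromosome 10, 89574020 to 89621253), a vesicular glutamate transporter, had 2.56 to 14.3 RPM (median 6.39) with vehicle and 9.0 to 39.6 RPM (median 21.5) with rapamycin, with 16 of 18 rapamycin libraries above the highest vehicle library. Its log2 difference was 1.74 ± 0.20 (limma adjusted p = 1.74e-06).

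**Figure D2:**
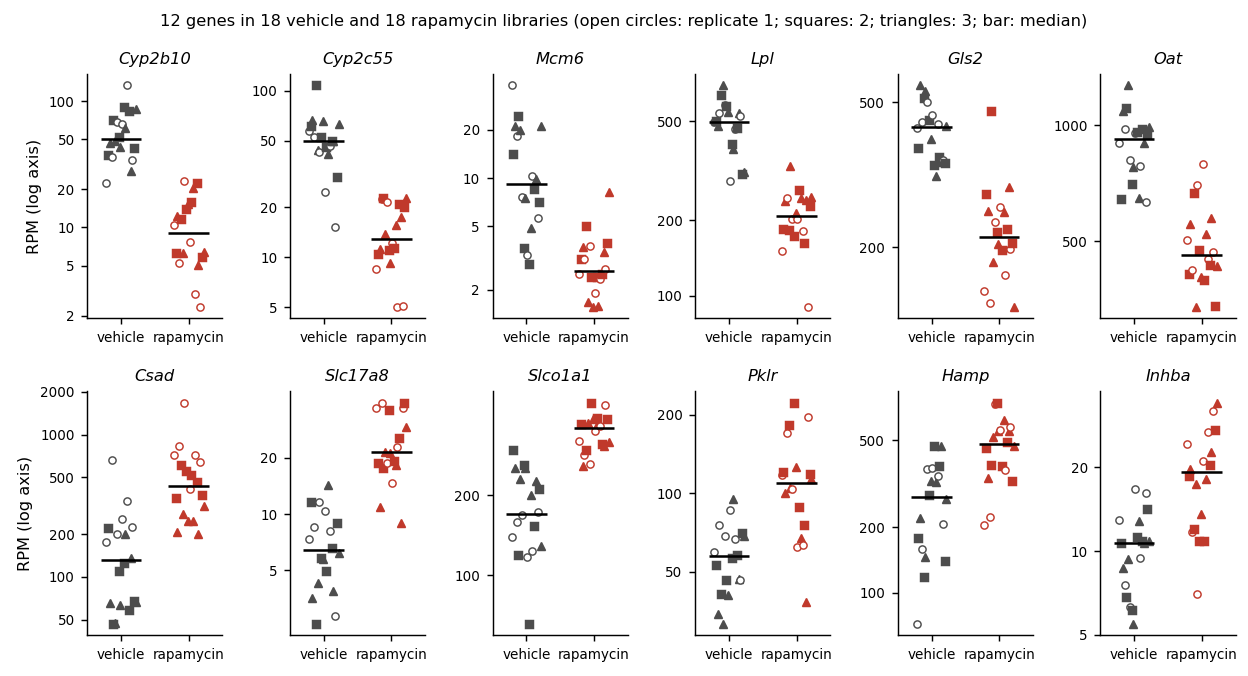
RPM (log axis) of 12 genes in 18 vehicle (grey) and 18 rapamycin (red) libraries, one point per library, with the median as a bar and marker shape for replicate number. For Cyp2b10, 16 of 18 rapamycin libraries lie under the lowest vehicle library, and for Slc17a8 16 of 18 lie above the highest.

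Most called genes of the lysosome list were falls. Of 48 autophagy and lysosome genes, 10 fell and 3 rose, with 8 falls and 1 rise passing in both fits. Hexa, a hydrolase of glycolipid breakdown, had 19.9 to 51 RPM (median 30.1) with vehicle and 15.1 to 27.4 RPM (median 18.9) with rapamycin, a log2 change of -0.62 ± 0.11 (limma adjusted p = 4.67e-04). The lysosomal proteases Ctsl and Ctsb fell by 1.45-fold and 1.36-fold, and both missed the threshold without replicate 3 (limma adjusted p = 0.0512 for Ctsl and 0.051 for Ctsb). The proton pump subunits Atp6v1b2 and Atp6v1a fell by 1.55-fold and 1.19-fold, the former with a log2 difference of -0.63 over all libraries and -0.30 without replicate 1. Of the autophagy genes in this list, the receptor Tax1bp1 rose in both fits, with a log2 difference of 0.41 ± 0.11 (0.19 without replicate 1). The list median was -0.12 over all libraries and -0.03 without replicate 1, so the shift of the list as a whole was smaller there.

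Nucleotide synthesis, which mTORC1 is known to promote, had 4 falls and 1 rise among 21 genes, with all 4 falls passing in both fits. Ppat, the first committed enzyme of purine synthesis, had 13.7 to 36.9 RPM (median 23.6) with vehicle and 9.36 to 20.5 RPM (median 16.1) with rapamycin, a log2 difference of -0.58 ± 0.09 (limma adjusted p = 5.62e-05). Paics, a later purine enzyme, fell by 1.63-fold, and the phosphoribosyl pyrophosphate synthetase Prps2 by 1.22-fold. The nucleoside diphosphate kinase Nme1 fell by 1.32-fold. Gmps, which makes GMP, was higher over all libraries but not without replicate 1 (limma adjusted p = 0.176).

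ATF4 target genes did not move one way. Of 22 tested, 7 fell and 3 rose, with 4 falls and 2 rises in both fits and a median log2 difference of 0.03. Besides Cth, the lipoprotein receptor Vldlr had 2.97 to 13.8 RPM (median 5.81) with vehicle and 1.17 to 5.73 RPM (median 2.21) with rapamycin, a log2 difference of -1.16 ± 0.18. The stress cytokine Gdf15 fell by 1.9-fold and the amino acid transporter subunit Slc3a2 by 1.2-fold, while Cebpb, a transcription factor, rose by 1.58-fold. None of the 20 aminoacyl-tRNA synthetases tested passed in both fits.

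Genes of sugar metabolism rose more often than they fell. Of 22 glycolysis, fructose and ChREBP target genes, 7 rose and 1 fell, with 6 rises and 1 fall in both fits. Pklr (chromosome 3, 89136142 to 89146784), the liver pyruvate kinase, had 31.4 to 94.6 RPM (median 57.1) with vehicle and 38.4 to 222 RPM (median 109) with rapamycin, a log2 difference of 0.91 ± 0.13 (limma adjusted p = 4.05e-05). Khk, which phosphorylates fructose, rose by 1.58-fold, and Tkfc, which acts after it, by 1.6-fold. The glucose transporter Slc2a2 had 131 to 279 RPM (median 206) with vehicle and 209 to 361 RPM (median 286) with rapamycin, a log2 change of 0.55 ± 0.07 (limma adjusted p = 1.04e-05). The list median was 0.15 (0.23 without replicate 1).

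Of 23 genes of insulin signalling, FOXO and gluconeogenesis, 6 rose and none fell, with 5 rises in both fits. Igfbp1, a secreted insulin-repressed binding protein, had 10.5 to 312 RPM (median 118) with vehicle and 47 to 621 RPM (median 135) with rapamycin, a log2 change of 0.89 ± 0.24 (limma adjusted p = 0.0145). The regulatory kinase subunit Pik3r1 rose by 1.78-fold over all libraries, but its log2 difference was 0.37 without replicate 1 against 0.83 with it. Foxo1 itself rose by 1.18-fold, and Slc37a4, the glucose-6-phosphate transporter, by 1.22-fold. In the glycogen list of 15 genes, glycogen synthase Gys2 and phosphorylase Pygl were the 2 that rose.

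Lipid genes were mixed. Lpl (chromosome 8, 68880491 to 68907448), which hydrolyses triglyceride in lipoproteins, had 287 to 696 RPM (median 497) with vehicle and 89.8 to 331 RPM (median 209) with rapamycin. Its log2 difference was -1.21 ± 0.11 (limma adjusted p = 5.48e-08), and 17 of 18 rapamycin libraries lay under the lowest vehicle library. The phosphatidate phosphatase Lpin1 (chromosome 12, 16535669 to 16610966) had 23.1 to 196 RPM (median 43.4) with vehicle and 35.4 to 322 RPM (median 98.4) with rapamycin, a log2 difference of 0.96 ± 0.21, and its relative Lpin2 had 0.53 (0.31 without replicate 1).

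Of 24 fatty acid synthesis genes, 3 rose in both fits, the carboxylase Acaca, the elongase Elovl6 and malic enzyme Me1, with folds of 1.3, 1.5 and 1.45. The acyl-CoA synthetase Acsl5 fell by 1.31-fold. Of 25 cholesterol synthesis genes the sterol isomerase Ebp alone fell, by 1.49-fold, and none rose. That single fall lies near the share of all genes lower, 5.74% over all libraries and 3.24% in both fits. Among 36 fatty acid oxidation and PPAR alpha genes, 6 fell and none rose, with 3 falls in both fits. These 3 were Acaa1b, a peroxisomal thiolase with a log2 difference of -0.57 ± 0.15, and Cyp4a10 and Cyp4a31, near-identical copies whose values are uncertain.

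Called secreted regulators and iron genes were mostly rises. Of 18 hepatokines and secreted regulators tested, 5 rose and 1 fell, all in both fits. Inhba (chromosome 13, 16011851 to 16031621), which encodes the activin A subunit, had 5.46 to 16.7 RPM (median 10.7) with vehicle and 7.0 to 34.1 RPM (median 19.2) with rapamycin, a log2 difference of 0.82 ± 0.10 (limma adjusted p = 1.74e-06). Serpina12, the vaspin gene, rose by 1.75-fold. Hamp (chromosome 7, 30942368 to 30944032), hepcidin, which limits iron export into blood, had 71.8 to 471 RPM (median 274) with vehicle and 204 to 742 RPM (median 479.6) with rapamycin, a log2 difference of 0.89 ± 0.14 (limma adjusted p = 1.04e-04).

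Hamp2, a close relative of Hamp, had a log2 difference of -1.44 ± 0.25 (-0.88 without replicate 1), so these copies differed in sign, and sharing of reads between them was not tested. The BMP pathway genes Id1 and Smad7, which respond with hepcidin to BMP signals, rose by 1.76-fold and 1.82-fold. Id1 was not called without replicate 2 (limma adjusted p = 0.0865). Of 20 heme and iron genes tested, 4 rose and 1 fell, all in both fits, and the list median was 0.04. The ferritin light chain gene Ftl1 fell by 1.35-fold. Of 26 acute phase genes, haptoglobin Hp, ceruloplasmin Cp and Hamp rose in both fits, with folds of 1.8, 1.54 and 1.85. The cell cycle inhibitor Cdkn1a (chromosome 17, 29090976 to 29100727) had 22.7 to 229.8 RPM (median 85.3) with vehicle and 62.5 to 416 RPM (median 145) with rapamycin, a log2 difference of 0.86 ± 0.15. The organic anion transporter Slco1a1 (chromosome 6, 141907282 to 141946962) had 65.4 to 295 RPM (median 170.5) with vehicle and 257 to 446 RPM (median 356) with rapamycin, a log2 difference of 1.0 ± 0.13 (limma adjusted p = 7.75e-06).

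**Figure D3:**
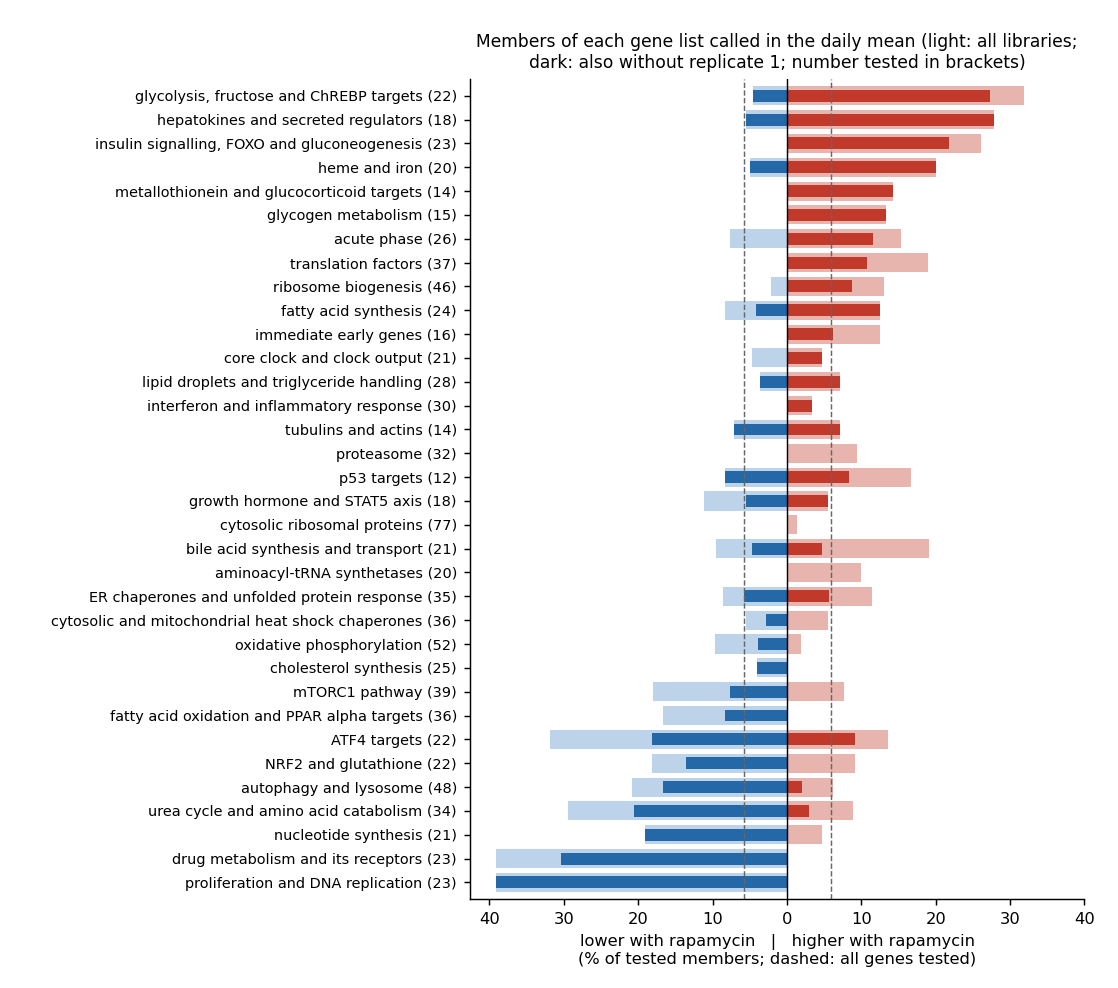
Share of tested members of each gene list called in the daily mean (x axis, %; lower with rapamycin to the left in blue, higher to the right in red; light bars all libraries, dark bars also without replicate 1; dashed lines all genes tested, 5.97% higher and 5.74% lower). Lists are ordered by higher minus lower share in both fits. Proliferation and DNA replication lies at the bottom with 9 of 23 lower, and glycolysis, fructose and ChREBP targets at the top with 6 of 22 higher in both fits.

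Transcripts of the mTORC1 pathway itself were also tested. Of 39 tested, 7 fell and 3 rose over all libraries, and 3 falls and no rise passed in both fits, beside 5.74% of all genes lower over all libraries and 3.24% in both fits. The median log2 difference was -0.13 (-0.07 without replicate 1). Fnip1 (chromosome 11, 54438199 to 54518235), a partner of folliculin in sensing amino acids at the lysosome, had 17.5 to 55.1 RPM (median 31.3) with vehicle and 17.1 to 33.7 RPM (median 25.7) with rapamycin, a log2 difference of -0.29 ± 0.07 (limma adjusted p = 0.00363). Flcn (chromosome 11, 59791408 to 59810016), folliculin, had 5.64 to 25.5 RPM (median 12.3) with vehicle and 3.08 to 17.4 RPM (median 9.59) with rapamycin, a log2 difference of -0.46 ± 0.14 (limma adjusted p = 0.0251). Tsc1, a brake on mTORC1, fell by 1.2-fold (limma adjusted p = 0.0485; without replicate 1, 0.0394).

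The other 7 calls in this list were lost without replicate 1. They were falls of the stress inhibitor Ddit4, the substrate Eif4ebp1, the scaffold subunit Lamtor1 and the kinase Eef2k, and rises of the sensor Sesn2, the kinase Rps6kb1 and the transcription factor Tfe3. Without replicate 1 there were 6 falls, which added Sesn1, Sesn3 and Pdcd4 to Fnip1, Flcn and Tsc1. Pdcd4, a translation inhibitor that mTORC1 signalling marks for degradation, had log2 differences of -0.28 ± 0.12 over all libraries (limma adjusted p = 0.131) and -0.39 without replicate 1 (limma adjusted p = 6.97e-05). Neither Mtor (log2 difference 0.10 ± 0.08) nor Rptor (-0.02 ± 0.08) was called.

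Of the translation machinery, whose synthesis mTORC1 promotes, factors and nucleolar genes had called rises and ribosomal protein genes had none in both fits. Of 77 cytosolic ribosomal protein genes 1 was called over all libraries and none in both fits, and the list median was -0.02. Of 46 ribosome biogenesis genes, 6 rose and 1 fell, with 4 rises in both fits. The nucleolar proteins Npm1, Nop56, Ddx21 and Nolc1 were these 4, with folds of 1.34, 1.41, 1.38 and 1.35. For Ddx21 and Nolc1 the log2 differences of 0.46 and 0.43 were 0.29 and 0.29 without replicate 1. Of 37 translation factors, 7 rose and none fell, with 4 rises in both fits. Over all genes 2.5% rose in both fits. Elongation factor Eef2 had 665 to 1271 RPM (median 791) with vehicle and 726 to 2075 RPM (median 1093) with rapamycin, a log2 difference of 0.44 ± 0.13 (limma adjusted p = 0.0235).

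Called endoplasmic reticulum chaperone genes moved in both directions, and few passed in both fits, where 2.5% of all genes rose and 3.24% fell. Of 35 tested, 4 rose and 3 fell, with 2 of each passing in both fits. Sdf2l1, a cofactor of the ER chaperone BiP, had 5.05 to 53.4 RPM (median 19.4) with vehicle and 2.89 to 27.2 RPM (median 8.73) with rapamycin, a log2 change of -0.92 ± 0.16 (limma adjusted p = 3.07e-04), and the proline isomerase Ppib fell by 1.32-fold. Derl2, of ER-associated degradation, rose by 1.31-fold and Hspa13 by 1.27-fold. Of 36 cytosolic and mitochondrial heat shock chaperones, the mitochondrial Hspa9 alone passed in both fits, with a log2 difference of -0.19 ± 0.05. Of 52 oxidative phosphorylation genes, 5 fell and 1 rose, with 2 falls in both fits and a median of -0.17. Those 2 falls lie near the 3.24% of all genes lower in both fits.

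Other lists were smaller or had calls in both directions, and their counts in both fits stand beside 2.5% of all genes higher and 3.24% lower. Of 22 NRF2 and glutathione genes, 4 fell and 2 rose, with 3 falls in both fits. Of 21 bile acid genes, 4 rose and 2 fell, with 1 of each in both fits. Of 14 metallothionein and glucocorticoid target genes, 2 rose, both in both fits, and of 30 interferon and inflammatory genes 1 rose, in both fits. The 32 proteasome genes had 3 rises, none of which passed without replicate 1.

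Marker genes of other liver cells were examined beside these groups. Of 12 stellate cell and fibroblast markers tested, 3 rose and none fell, all 3 in both fits, led by decorin, Dcn (log2 difference 0.57, limma adjusted p = 7.93e-07). The collagen markers Col1a1, Col1a2 and Col3a1 had log2 differences of -0.67, -0.19 and -0.43, none of them called, and the list median was 0.19. The summed level of that marker list was 306.2 to 493.6 RPM with vehicle and 409.2 to 661.1 RPM with rapamycin. Dcn alone had a mean of 258.8 RPM over the BMKO libraries, so the sum mainly follows this gene. All 3 tested B and plasma cell markers fell, 2 of them in both fits, and their list summed to 4.67 to 45.6 RPM with vehicle and 2.67 to 11.0 RPM with rapamycin.

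The summed ranges of the 2 arms overlapped for these and for the other cell types, and no listed marker found in the data was at 0 in every library. Kupffer cell markers summed to 202.9 to 835.2 RPM with vehicle and 212.0 to 628.4 RPM with rapamycin, with 1 of 14 lower. Among 12 endothelial markers 1 rose and 2 fell, and the 2 testable T and NK cell markers and 3 neutrophil and monocyte markers were not called. The hepatocyte marker Ass1 was lower over all libraries but not without replicate 1. Whether cell composition has a part in the gene groups above was not tested.

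At single times the comparison rests on 3 libraries in each arm. The largest count was at ZT 6, in the middle of the light phase and of the daily fast, where 79 genes differed (0.626%), 47 higher and 32 lower. The counts were 22 at ZT 2 (0.174%), 3 at ZT 10 (0.0238%), 5 at ZT 14 (0.0397%), 6 at ZT 18 (0.0476%) and 7 at ZT 22 (0.0555%). Without replicate 1 they were 2, 191, 91, 5, 8 and 0 genes at ZT 2, 6, 10, 14, 18 and 22, so ZT 6 had the most in these 2 fits. Without replicate 2 there were 0 called genes at every time. Without replicate 3 there was 1 at ZT 6 and 0 at every other time, so calls at single times, those below included, depend on all 3 sets. Differences between times in these counts were not tested as such. With all libraries, the numbers at an unadjusted p under 0.05 were closer together, 1513 at ZT 2, 1483 at ZT 6, 991 at ZT 10, 717 at ZT 14, 939 at ZT 18 and 847 at ZT 22.

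The genes called at ZT 6 show what these values look like. Mcm6 had 18.4, 24.4 and 19.8 RPM in the 3 vehicle libraries and 3.13, 5.02 and 1.67 RPM in the 3 rapamycin libraries, a log2 difference of -2.59 ± 0.41 (limma adjusted p = 0.00515; without replicate 1, 0.0105). The 2 sets did not overlap. Cdkn1a had 44.4, 43 and 22.7 RPM with vehicle and 143, 187 and 160.5 RPM with rapamycin, a log2 difference of 2.19 ± 0.38 (limma adjusted p = 0.00656; without replicate 1, 0.00834). At ZT 14 the same gene had 95.9, 167 and 224 RPM and 95.7, 416 and 175 RPM, with overlapping sets and a log2 difference of 0.32 ± 0.38 that was not called (limma adjusted p = 0.955).

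Some genes differed at other times too. Lpl was called at ZT 2, 6 and 10, and at ZT 10 it had 579.7, 577 and 546 RPM with vehicle and 202, 174 and 214 RPM with rapamycin (log2 difference -1.53 ± 0.27, limma adjusted p = 0.0338). Cyp2b10 was called at ZT 6, 18 and 22, and at ZT 22 it had 34.1, 42.9 and 86.8 RPM and 2.34, 5.81 and 6.41 RPM (log2 difference -3.35 ± 0.55, limma adjusted p = 0.00757; without replicate 1, 0.0506). Slco1a1 was called at ZT 14, with 117, 65.4 and 199.7 RPM and 349.9, 390.4 and 375 RPM (limma adjusted p = 0.0302; without replicate 1, 0.0924).

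Daily rhythms were the second question, since feeding at night still drives rhythms in liver without a clock. In the vehicle arm 958 genes had a 24 h rhythm (7.6% of 12610), and in the rapamycin arm 76 (0.603%), with 52 genes in both. Without replicate 1 the counts were 1607 (12.6%) and 195 (1.53%). They were far lower without replicate 2, at 134 and 9, and without replicate 3, at 82 and 11. The vehicle rhythms peaked most often between ZT 16 and ZT 20, with 355 of the 958 genes, and second most often between ZT 4 and ZT 8, with 209. The median residual variance was 0.149 in the vehicle arm and 0.108 in the rapamycin arm, while the counts above used 1 spread shared by both arms. With each arm fitted alone, 686 genes were rhythmic with vehicle and 33 with rapamycin.

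Amplitude, the distance from mean to peak of the fitted 24 h wave on the log2 scale, was smaller with rapamycin for 61.3% of all 12610 genes, with medians of 0.193 with vehicle and 0.154 with rapamycin. Genes can be chosen without use of these libraries from WT vehicle liver, where 1527 of 12254 genes were rhythmic (12.5%). For the 1500 of them tested here the median amplitude was 0.284 with vehicle and 0.194 with rapamycin, and it was smaller with rapamycin for 72.1%. Without replicate 1 these medians were 0.298 and 0.208, and 69.2% were smaller. A fitted amplitude is never below 0 and rises with the spread between libraries, which was larger with vehicle. The part of that spread in these amplitudes was not tested.

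The test of the rhythm difference itself called few genes, 11 over all libraries (0.0872%) and 40 without replicate 1 (0.314%), with 1323 genes at an unadjusted p under 0.05 in the former. It called 0 genes without replicate 2 and 0 without replicate 3, so every rhythm difference named below lost its call in those fits. The DESeq2 test called 128 over all libraries. The 11 were Tsku, Fnip1, Nolc1, Nop56, Tns1, Flcn, Prmt1, Mybbp1a, Taz, Tuba1c and Dhx29. They include 3 nucleolar proteins of the ribosome biogenesis list, Nolc1, Nop56 and Mybbp1a, and the folliculin pair.

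Tsku (chromosome 7, 98350668 to 98361328) encodes the secreted hepatokine Tsukushi. In vehicle liver its 3 libraries had 1.88, 0.664 and 1.65 RPM at ZT 6 and 24.4, 13.4 and 25.6 RPM at ZT 14. In rapamycin liver they had 12.6, 15 and 9.91 RPM at ZT 6 and 9.27, 17 and 11.1 RPM at ZT 14. The vehicle libraries were lowest in the light phase, where the rapamycin libraries stayed near their level at night. The amplitude was 1.62 with vehicle and 0.16 with rapamycin (SE 0.17 each; limma adjusted p of the rhythm difference = 0.00539; without replicate 1, 0.0541).

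Nolc1 (chromosome 19, 46075863 to 46085530), a nucleolar chaperone for snoRNPs, had the same form. Its vehicle libraries had 11.2, 13.8 and 11.8 RPM at ZT 6 and 34, 52.3 and 54.7 RPM at ZT 14, and its rapamycin libraries 37.9, 27.9 and 27.5 RPM and 31.3, 47 and 43.7 RPM. The amplitude was 0.87 with vehicle and 0.12 with rapamycin (limma adjusted p = 0.0144; without replicate 1, 0.0374). Nop56, a core protein of box C/D snoRNPs, had amplitudes of 0.78 and 0.17 (limma adjusted p = 0.0144; without replicate 1, 0.0956).

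Over the ribosome biogenesis list, 16 of 46 genes were rhythmic with vehicle and 0 with rapamycin (20 and 0 without replicate 1), and the median amplitude was 0.28 and 0.145. The shares of all genes were 7.6% and 0.603%, and the fall was not particular to this list. Of 35 ER chaperone genes 14 and 0 were rhythmic, and of 36 heat shock chaperones 17 and 5. Fatty acid synthesis genes changed less, with 12 and 9 of 24. The cytosolic ribosomal protein genes had no rhythmic member in either arm over all libraries. A difference between 2 such counts is not a test, and the tested differences in the biogenesis list were the 3 named above (1 without replicate 1).

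Fnip1 and Flcn cycled with the opposite phase. Fnip1 had 41.3, 45.7 and 55.1 RPM at ZT 6 and 17.5, 21.6 and 26.4 RPM at ZT 14 with vehicle. With rapamycin it had 26.1, 23.6 and 26.5 RPM and 33.7, 28.3 and 25.5 RPM. The ZT 6 sets did not overlap, and the log2 change was -0.88 ± 0.16 (limma adjusted p = 0.00961). The amplitude was 0.55 with vehicle and 0.25 with rapamycin (limma adjusted p of the rhythm difference = 0.0144; without replicate 1, 0.0374).

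Flcn had 25.5, 20.5 and 22.2 RPM at ZT 6 with vehicle and 3.82, 8.55 and 10.2 RPM with rapamycin, where replicate 1 was the lowest rapamycin library. The log2 difference there was -1.63 ± 0.33 (limma adjusted p = 0.0166; without replicate 1, 0.0246). Its amplitude was 0.85 with vehicle and 0.45 with rapamycin (0.75 and 0.10 without replicate 1; limma adjusted p of the rhythm difference = 0.0144, and 0.0374 without replicate 1). In vehicle liver both genes were high by day and low at ZT 14.

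**Figure D4:**
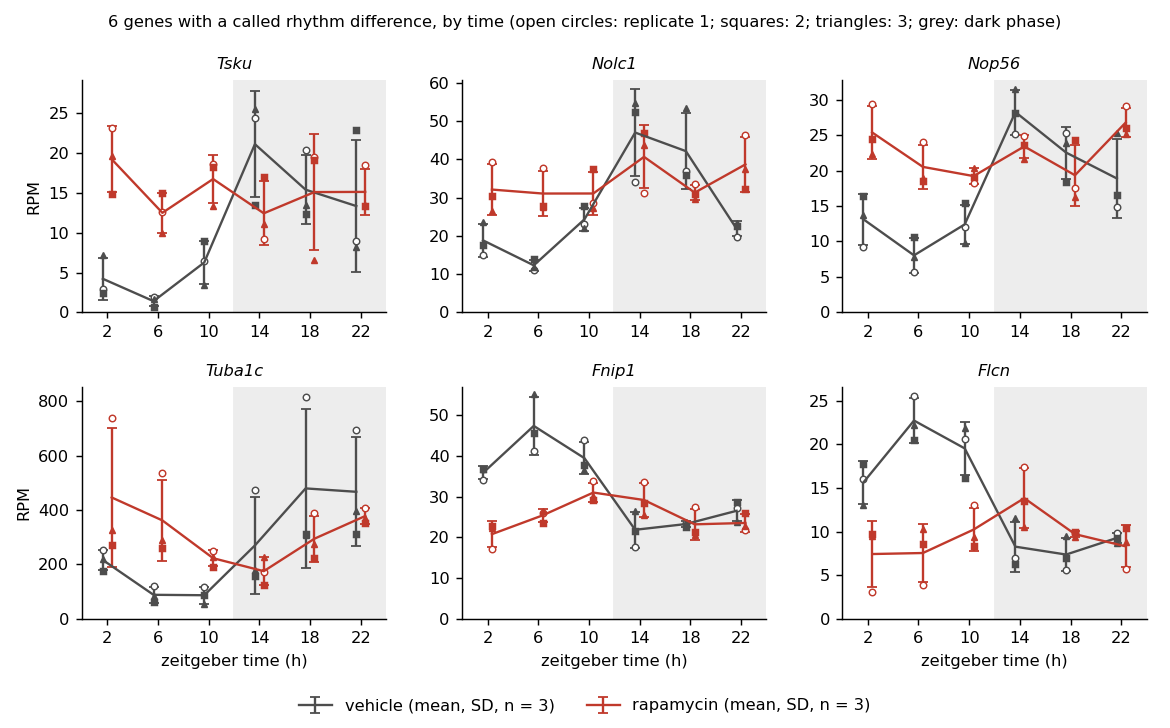
RPM of 6 genes with a called rhythm difference by zeitgeber time (x axis, h), with the mean and SD of 3 libraries as lines and bars and each library as a marker; grey is vehicle and red is rapamycin. In vehicle liver Tsku, Nolc1, Nop56 and Tuba1c are low at ZT 6 and Fnip1 and Flcn are high there, while the rapamycin lines are flatter.

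Tuba1c, an alpha tubulin, was low by day and high by night in vehicle liver. Its vehicle libraries had 119.6, 61.3 and 83.8 RPM at ZT 6 and 692, 311 and 397 RPM at ZT 22, with replicate 1 the highest at both. The rapamycin libraries had 534, 261 and 290.0 RPM at ZT 6 and 409, 352 and 372 RPM at ZT 22. The rhythm difference was called over all libraries (limma adjusted p = 0.0312) and without replicate 1 (0.00944). In the list of 14 tubulins and actins, 4 had a called rhythm difference without replicate 1.

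Bmal1, which binds E-boxes, is absent from both arms, and other factors, TFEB and TFE3 among them, bind elements with the same core. The letters CACGTG, which read the same on both strands, were present in the 250 bases before the start for 7 of 36 mTORC1 pathway genes with a RefSeq promoter (19.4%), for 2 of the 11 genes with a called rhythm difference (18.2%) and for 9.98% of 9067 tested genes with a promoter. For genes that passed in both fits in the daily mean, the share was 8.77% of those higher and 9.94% of those lower. The 2 genes with a called rhythm difference and a match are Fnip1 and Prmt1, an arginine methyltransferase. Their windows are printed 5′ to 3′ from RefSeq on GRCm38.p6 with CACGTG in capitals. They lie at chr11:54438047-54438166, plus strand, and chr7:44986539-44986658, minus strand. No factor's binding was measured here.
Fnip1: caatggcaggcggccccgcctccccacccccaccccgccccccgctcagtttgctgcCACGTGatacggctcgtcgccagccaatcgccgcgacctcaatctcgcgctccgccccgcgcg
Prmt1: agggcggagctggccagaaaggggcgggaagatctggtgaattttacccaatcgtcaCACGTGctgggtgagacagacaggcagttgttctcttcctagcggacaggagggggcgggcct

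Few clock genes passed in level. Of 21 core clock and output genes tested, Rora rose in both fits, with 57.5 to 169 RPM (median 123) with vehicle and 109.7 to 189 RPM (median 152) with rapamycin (log2 difference 0.45 ± 0.13, limma adjusted p = 0.0236; without replicate 1 0.26). Dbp, a clock output factor, was lower over all libraries (-0.61 ± 0.16) but its call was lost without replicate 1 (limma adjusted p = 0.211). With vehicle 5 clock genes were rhythmic and with rapamycin none, against 8 and 2 without replicate 1. Among the 5, the feeding-responsive deadenylase Noct had amplitudes of 1.63 and 0.59 and Per2 of 0.77 and 0.58. None of the 21 had a called rhythm difference.

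The WT arms ask whether the response depends on the clock gene. Rapamycin changed 2012 of 12254 genes in WT liver (16.4%), 907 higher and 1105 lower, and 2015 without the shallow WT library. Without the whole of replicate 1, whose WT rapamycin libraries were low in depth, 1027 of 12286 were called. The overlaps below use the WT calls over all libraries. Of 12073 genes tested in both genotypes, 370 were called in both, which is 25.6% of the BMKO genes and 18.7% of the WT genes, and 315 of these had the same sign. Of the 706 BMKO genes passing in both fits that were tested in WT, 249 were called there (35.3%), 241 with the same sign, and 76.8% of the 706 had the same sign in WT. The share with the same sign was 61.7% of all 1445 called BMKO genes and 48.2% of all genes. The genotypes share no libraries.

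Several leading genes were also called in WT. Cyp2b10 had a log2 difference of -2.16 in WT, Cyp2c55 of -1.15, Lpl of -0.82, Otc of -0.90, Gls2 of -0.81, Oat of -0.76 and Csad of 1.09. The flattened gene Tsku had 1.07 and Cdkn1a 0.90. All 9 were called in WT, and none had a called difference between genotypes, which does not show that their responses were equal.

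The test of the difference between genotypes called 1668 of 12472 genes (13.4%), but 126 without replicate 1 and 1597 without the shallow WT library. Replicate 1 of the WT rapamycin arm was low in depth at every time, and the part of depth in these counts was not tested. It called 502 of the 1463 BMKO genes that passed over all libraries and could be tested. Among the 706 BMKO genes above, 25 had a genotype difference called with all libraries and without replicate 1. Cyp2e1 was one, with a log2 difference of 0.20 in WT and -0.80 in BMKO liver (difference -1.01, limma adjusted p = 0.00490; without replicate 1 -1.01, 0.0162). Rora had -0.24 in WT and 0.45 in BMKO liver (difference 0.68, limma adjusted p = 0.00484; without replicate 1, 0.0262). Lpin2 had -0.26 and 0.53 (difference 0.78, limma adjusted p = 0.00479; without replicate 1, 0.0428). Mcm6 had -0.30 in WT, and its difference of -1.33 was called over all libraries (limma adjusted p = 0.00321) but not without replicate 1 (0.0527).

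**Figure D5:**
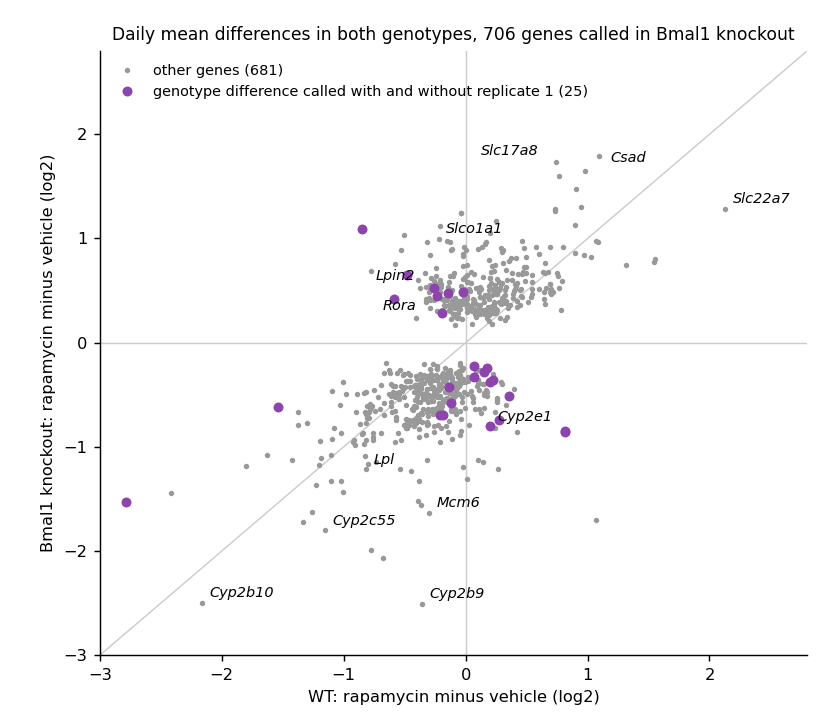
Daily mean difference, rapamycin minus vehicle (log2), in WT (x axis) and Bmal1 knockout liver (y axis) for 706 genes that passed in both knockout fits and were tested in WT; purple marks the 25 genes whose genotype difference was called with and without replicate 1, and the diagonal marks equal values. The points for Cyp2b10, Cyp2c55 and Lpl lie below 0 in both genotypes, while Cyp2e1 is below 0 in the knockout and above 0 in WT.

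The lists differed between genotypes in places, and are given side by side with no test of the lists. The 36 fatty acid oxidation and PPAR alpha genes had 6 falls and no rise in BMKO liver, while in WT 15 of 35 rose and 1 fell, with medians of -0.16 and 0.26. A genotype difference was called over all libraries for 17 of these genes, beside 13.4% of all genes. Such calls fell from 1668 to 126 over all genes without replicate 1, and the members of this list were not counted in that fit. Replication genes had 9 of 23 falls in BMKO liver and 0 of 20 calls in WT. Their medians were -0.37 and -0.20, of the same sign, and 1 of the genes had a called genotype difference over all libraries. Urea cycle and amino acid genes had 10 falls in BMKO and 12 in WT liver.

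Raptor is the subunit that defines mTORC1, so its deletion in liver is another way to lower the activity of that complex, in mice with an intact Bmal1 gene and no injection. Raptor knockout and Albumin Cre livers differed in 4994 of 12194 genes (41%), 2305 higher and 2689 lower. That split depends on the scaling, since the deposited scaling moved the median of all genes from -0.01 to -0.23 on the log2 scale and gave 871 higher and 6025 lower genes. Of 1404 BMKO rapamycin genes tested in both, 628 were called in the Raptor knockout over the rescaled libraries (44.7%, and 12.7% of the Raptor knockout's genes). That share lies near the 41% called over all genes. Of the 628, 380 had the same sign and 248 the opposite sign. The share with the same sign was 56.9% of the 1404 genes and 54.7% of all genes. Oat had a log2 difference of 0.56 there (limma adjusted p = 1.51e-04) and 0.33 with the deposited scaling (limma adjusted p = 0.0146), higher under both, where it fell with rapamycin. Cyp2b10 and Csad had -0.22 and -0.32, not called over the rescaled libraries, and -0.44 and -0.55, called, with the deposited scaling.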

How the data were processed

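Whole-liver RNA of 108 libraries of the series was used, 36 of them from BMKO mice. The authors deposited 1 table of scaled read signal for 15907 genes. Per the submitters' processing notes it came from STAR 2.7.3a and SAMtools on GRCm38.p6 (mm10), while the counting program, the annotation and the scaling are, in the sources used here, not given. A further 126 of the 234 columns were not used. In each library the deposited signal is a whole multiple of 1 step, and in the 36 BMKO libraries 100% of values were whole reads within 0.01 read. In the Raptor knockout arm 198 genes off the step were left out. Depth was 5.66 to 12.7 M reads over the 36 libraries.

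RPM was rescaled by TMM (edgeR 4.0.16), genes whose mean reached 1 RPM were kept, and log2(RPM + 0.5) was fitted with limma 3.58.1 (trend) in R 4.3.3, with 1 mean per arm and time, no block and a Benjamini-Hochberg threshold of 0.05. Fold changes are on that log2 scale, which understates low genes. Daily means average 6 times, and rhythms are 24 h waves tested over the 6 times. The genotype difference came from 1 fit of the 4 injected arms. P-values measure the spread between these libraries, which are biological replicates per the series' design text. The test was tried on simulated counts with no effect of replicate number and the same dispersion in both arms. That trial therefore cannot show how the test behaves with the replicate sets seen here.

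Members and gene lists were chosen with earlier results of these data known. Genes were named by rule: clock and mTORC1 genes, the leading members of each list, and the largest called differences in level, rhythm and at each time, above 5 RPM outside the lists. Agxt, Cyp4a12a, Cyp4a12b, Tax1bp1, Hamp2, Taz and Tns1 were named after their values were seen, and 1 gene is not reported here. Promoters came from RefSeq on GRCm38.p6. Alternatives were other scalings, filters, pseudocounts, tests (edgeR, DESeq2 1.42.0), a replicate block and left-out replicates.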

Additional observations from a re-analysis of the deposited data

Results flagged for a closer look

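For 23 of the genes given above with a value, the response to rapamycin differed between Bmal1 knockout and WT liver in the fit of all 4 injected arms (limma, interaction of genotype and drug). For 3 of them, Cyp2e1, Lpin2 and Rora, it was called without replicate 1 as well. The differences, knockout minus WT in log2, were -1.01 for Cyp2e1, 0.78 for Lpin2 and 0.68 for Rora.

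The other 20 were called with all libraries and not without replicate 1, where 19 had the same sign and 18 a smaller difference, 6 of them under 0.5 of its size. Leaving out replicate 1 also leaves fewer libraries and takes out WT rapamycin libraries of low depth. The part of each in a lost call was not tested. Mcm6 missed the threshold there with an adjusted p of 0.0527 (limma). Among genes that fell in knockout liver, the difference was -2.15 for Cyp2b9, -1.39 for Cyp4a12a, -1.22 for Cyp4a12b, -1.33 for Mcm6, -0.85 for Dbp, -0.84 for Acaa1b, -0.63 for Atp6v1b2, -0.39 for Slc3a2, -0.36 for Ppib and 0.37 for Tsc1. Among genes that rose, it was 1.42 for Igfbp1, 1.21 for Slco1a1, 0.98 for Slc17a8, 0.85 for Pik3r1, 0.75 for Me1, 0.74 for Npm1, 0.58 for Tax1bp1, 0.47 for Ddx21, 0.44 for Hspa13 and 0.35 for Slc2a2. Each time holds 3 libraries in an arm, too few for a search for single outlying libraries.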

How the results depend on the processing

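Leaving out each replicate in turn gave 313 to 1106 genes for the daily mean (1477 with all libraries), 0 to 2 at ZT 2, 0 to 191 at ZT 6, 0 to 91 at ZT 10, 0 to 5 at ZT 14, 0 to 8 at ZT 18 and 0 to 0 at ZT 22. The same ranges were 0 to 40 for the rhythm difference, 82 to 1607 for rhythms with vehicle, 9 to 195 with rapamycin, 126 to 1255 for the genotype difference and 704 to 1434 for WT, whose counts were 1597 and 2015 without the shallow WT library.

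With a replicate block, the counts were 3050 for the daily mean, 111, 304, 57, 14, 67 and 32 at ZT 2, 6, 10, 14, 18 and 22, 215 for the rhythm difference, 1919 and 215 for rhythms with vehicle and rapamycin, and 2601 for the genotype difference. The labels do not say that a number marks a shared batch, and of 18 same-number pairs 6 correlated at 0.1 or less (range -0.11 to 0.49), so the block was not adopted. Of 36 libraries, 24 correlated best with their own number.

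The DESeq2 test gave 75, 199, 57, 25, 55 and 37 genes at ZT 2, 6, 10, 14, 18 and 22, 128 for the rhythm difference and 191 for rhythms with rapamycin. The edgeR test gave 13 at ZT 2, 5 at ZT 10, 2 at ZT 18 and 2 at ZT 22. Fitting the 4 injected arms together gave 8, 9, 1 and 0 genes at ZT 2, 10, 14 and 22, and 17 for the rhythm difference. Fitted alone, the vehicle arm had 686 rhythmic genes and the rapamycin arm 33. No filter gave 10 at ZT 2 and 5 at ZT 10, and at ZT 10 the deposited scaling gave 7, a pseudocount of 0.1 gave 6 and a pseudocount of 2 gave 5. The cause was not tested. Count tests were not run for the Raptor comparison, where values off the step could not be read as counts.

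In the BMKO, WT and genotype comparisons neither other scaling moved the median of all genes by more than 0.1, while for Raptor the deposited scaling moved it from -0.01 to -0.23 and the split from 46.2% to 12.6% higher, with 6896 genes called. At ZT 2 the deposited scaling gave 5 higher and 11 lower genes against 10 and 12. Signs of single values reversed for 2 that were not called, Rptor (0.0083) and Cdkn1a at ZT 14 (-0.18), both without replicate 2 (ranges over left-out replicates -0.031 to 0.0083 and -0.18 to 0.68). Low transcripts such as Gins2 and 3 libraries at each time limit the precision.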
